A study of Mus musculus with 12 samples.

Results

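The 10 genes described here encode proteins that copy and amplify centrioles, and they were taken as the genes named Deup1, Plk4, Stil, Sass6, Cep152, Cep63, Cep192, Cenpj, Ccp110 and Cetn2, on every probe that carries one of these symbols. Of the 45281 probes on the arrays, 17 carried the symbol of 9 of these genes. Cep192, which brings Plk4 to the mother centriole, had no probe in the annotation used here and was not analysed here. Testing needed a detection p-value below 0.05 on 3 or more of the 12 arrays, and 11 of the 17 probes met this. That left 8 genes tested among 12379 in all, each represented by its brightest probe.

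The choroid plexus (CP) is the epithelium that lines folds in the brain ventricles and secretes cerebrospinal fluid, and RNA came from hindbrain CP tumors and from hindbrain CP of wild type mice, all on a C57BL/6 background. Tumor mice were Math1-cre;Rosa26-NICD1, in which Cre expressed from Math1 (Atoh1) switches on the intracellular domain of the Notch1 receptor (NICD1) from the Rosa26 locus. Collection was at postnatal day 0 (P0) and day 21 (P21) in both genotypes, with 3 arrays in each of the 4 groups and tissue of several animals pooled for each array. The title states the question, whether Notch starts tumors by holding back multiciliated differentiation. In bulk tissue, fewer cells of a type and less RNA per cell cannot be told apart.

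A dividing cell builds one new centriole beside each old one, starting when the kinase Plk4 is brought to the mother centriole and assembles a cartwheel scaffold. A multiciliated cell, such as a CP epithelial cell, stops dividing and makes many centrioles at once, partly on deuterosomes, ring-shaped platforms organised by Deup1. These centrioles dock at the surface as basal bodies and each grows a cilium. Most of the proteins involved serve both routes, whereas Deup1 is known for the multiciliated route.

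Per the file headers, 1 BeadChip held the 6 P0 arrays and a second one the 6 P21 arrays, so the effects of age and of BeadChip cannot be told apart. Tumors lay at positions A to C and wild-type CP at D to F on both, so position and genotype cannot be told apart either. Median raw signals were 134.0 to 179.9. Each of 7 tested CP epithelial markers was detected in every group on at least 1 array. P21 tumor sample 1 stood apart, since its summed intensity over 6 neuron markers was 32319 against 2321 and 1209 in the other two P21 tumors, and its sum over 3 granule neuron markers was 30198 against 4241 and 3939. Without that sample the P21 difference of Cetn2 no longer passed, and the other calls of centriole genes on P21 tumors stood, with falls from P0 of -1.32 (Deup1), -2.58 (Plk4) and -1.17 (Cep152) log2 units.

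The promoter windows of the genes that moved in these data are shown here, since 3 of them fell together with age and 1 differed between tumor and wild-type CP. Each window runs from 250 bases before to 50 bases after a RefSeq transcription start on build GRCm38.p6, 5′ to 3′ on the gene's strand. Capitals mark matches, on either strand, to short motifs of factors that act in dividing or multiciliated cells or in Notch signaling.
Deup1, chr9:15627797-15628096, minus strand: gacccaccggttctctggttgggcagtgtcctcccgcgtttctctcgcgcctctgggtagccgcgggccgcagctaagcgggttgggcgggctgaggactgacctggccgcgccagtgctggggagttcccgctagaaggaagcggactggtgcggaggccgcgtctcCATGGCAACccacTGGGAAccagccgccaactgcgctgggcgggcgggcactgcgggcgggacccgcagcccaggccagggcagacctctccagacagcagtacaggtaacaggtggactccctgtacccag
Deup1, chr9:15628257-15628556, minus strand: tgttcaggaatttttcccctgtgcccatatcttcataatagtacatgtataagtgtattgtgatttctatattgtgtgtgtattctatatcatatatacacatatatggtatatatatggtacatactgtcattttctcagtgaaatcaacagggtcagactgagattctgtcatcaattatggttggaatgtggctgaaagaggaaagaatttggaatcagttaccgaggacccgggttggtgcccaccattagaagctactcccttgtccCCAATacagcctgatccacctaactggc
Plk4, chr3:40799701-40800000, plus strand: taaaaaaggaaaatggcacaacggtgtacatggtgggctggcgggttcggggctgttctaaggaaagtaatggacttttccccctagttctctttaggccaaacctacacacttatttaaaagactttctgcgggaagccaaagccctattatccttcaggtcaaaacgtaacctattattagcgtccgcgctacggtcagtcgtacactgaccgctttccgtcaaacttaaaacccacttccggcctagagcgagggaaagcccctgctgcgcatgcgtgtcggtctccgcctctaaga
Cep152, chr2:125625064-125625363, minus strand: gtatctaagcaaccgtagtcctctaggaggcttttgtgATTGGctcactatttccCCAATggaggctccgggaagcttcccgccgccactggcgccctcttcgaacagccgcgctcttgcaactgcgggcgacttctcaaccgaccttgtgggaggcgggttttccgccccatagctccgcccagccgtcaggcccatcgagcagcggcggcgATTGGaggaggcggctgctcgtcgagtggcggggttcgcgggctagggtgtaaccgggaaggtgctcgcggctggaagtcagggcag
Cetn2, chrX:72918295-72918594, minus strand: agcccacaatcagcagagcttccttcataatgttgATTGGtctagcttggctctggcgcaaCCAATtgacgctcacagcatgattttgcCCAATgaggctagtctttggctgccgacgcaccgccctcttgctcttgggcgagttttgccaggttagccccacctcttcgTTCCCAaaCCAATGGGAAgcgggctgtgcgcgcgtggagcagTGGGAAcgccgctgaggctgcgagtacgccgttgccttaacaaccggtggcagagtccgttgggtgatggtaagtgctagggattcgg

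The motifs searched were the E2F site (TTTCCCGC, TTTCGCGC, TTTGCCGC or TTTGGCGC), the cell-cycle homology region CHR (TTTGAA), the CCAAT box bound by NF-Y, the X-box of the RFX factors, a part of it (CATGGNAAC), the site of the Notch effector RBPJ (TGGGAA) and a forkhead site (TGTTTAC). That part was added after the windows were seen. The member windows searched were 10 from 9 genes, with none of Cep192. Across them the CCAAT box matched in 4 windows (37.4% of 32817 windows of this length) and the RBPJ letters in 5 (25.6%). The E2F site matched in 1 window, that of Cep63 (2.26%), and CHR in 1, that of Sass6 (17.9%). The part of the X-box matched in 1, the first Deup1 window, starting 82 bases before the transcription start (1.93%). No window held the full X-box (0.128%) or the forkhead letters (3.65%). The Plk4 window held no match, the Cep152 window held 3 CCAAT boxes, and the Cetn2 window held 4 CCAAT boxes and 3 RBPJ matches, with 1 overlapping pair.

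Plk4, the kinase that starts centriole duplication, had the steepest fall from P0 to P21 in tumors among the 8 tested centriole genes. On the log2 scale of normalized intensity its detected probe read 7.60, 8.81 and 7.90 in the P0 tumors and 7.61, 7.10 and 7.81 in P0 wild-type CP. At P21 it read 5.72, 5.23 and 5.81 in tumors and 5.74, 5.31 and 5.09 in wild-type CP. Every P21 sample lay below every P0 sample, and tumor and wild-type values overlapped at both ages. The change with age was -2.13 ± 0.32 log2 units in wild-type CP (SE, limma with 3 arrays per group, adjusted p = 0.000646) and -2.52 ± 0.32 in tumors (adjusted p = 0.000145), or 4.37-fold and 5.72-fold. At P21 the probe was detected on 2 of 3 tumor and 1 of 3 wild-type arrays, so these values lie near background. Without background correction, the fall was -1.01 in wild-type CP and -1.33 in tumors, and both still passed. The SE rests on the variance that the 4 groups share in the fit. The other 2 Plk4 probes were detected on no array, with raw signals of 89.9 to 160.0.

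The tumor minus wild-type difference of Plk4 did not pass at either age. It was 0.60 ± 0.32 at P0 (adjusted p = 0.273), with a 95% interval of -0.10 to 1.29. At P21 it was 0.21 ± 0.32 (adjusted p = 0.721), with an interval of -0.48 to 0.90. The P0 interval reaches past 1 log2 unit. Without P0 tumor sample 2, the highest value, the Plk4 difference at P0 was 0.25 (adjusted p = 0.624).

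Neither of the 2 cartwheel genes gave a called difference. Stil, which links Plk4 to the cartwheel, has 2 probes here, neither detected on any array, with raw signals of 93.8 to 155.4 and a lowest detection p-value of 0.199. Its RNA was not measurable with these probes in tumor or wild-type CP at either age. Sass6, the protein from which the cartwheel hub is built, read 6.37, 7.30 and 7.20 in P0 tumors and 6.27, 6.45 and 6.19 in P0 wild-type CP. Tumors 2 and 3 lay above all wild-type samples, while tumor 1 lay within their range. The difference of 0.65 ± 0.29 did not pass (adjusted p = 0.176). At P21 Sass6 read 6.69, 6.22 and 6.04 in tumors and 6.00, 6.65 and 6.74 in wild-type CP, a difference of -0.14 ± 0.29 (adjusted p = 0.788). In tumors Sass6 differed by -0.64 ± 0.29 between P21 and P0 (adjusted p = 0.144), and by -0.93 without P0 tumor sample 1, where it passed (adjusted p = 0.0375).

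Cep152, a scaffold that holds Plk4 on the mother centriole, fell with age in both tissues. It read 10.43, 10.50 and 10.06 in P0 tumors, and 10.57, 10.22 and 9.82 in P0 wild-type CP. At P21 it read 9.0, 9.19 and 9.13 in tumors, and 9.09, 9.37 and 9.14 in wild-type CP. The ages did not overlap in either tissue, whereas the tissues overlapped at both ages. The age difference was -1.01 ± 0.22 in wild-type CP (adjusted p = 0.00577) and -1.22 ± 0.22 in tumors (adjusted p = 0.00162), or 2.01-fold and 2.33-fold lower at P21. Neither tumor difference passed. Tumor minus wild-type CP was 0.12 ± 0.22 at P0 (95% interval -0.35 to 0.59) and -0.09 ± 0.22 at P21 (-0.56 to 0.38).

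Cep63 works with Cep152 at the mother centriole and is the paralog of Deup1. Its brightest probe read between 12.42 and 13.31 on all 12 arrays, with no called difference in any comparison. Tumor minus wild-type CP was 0.04 ± 0.24 at P0 (95% interval -0.47 to 0.56) and 0.04 ± 0.24 at P21 (-0.48 to 0.55). The change with age was -0.01 ± 0.24 in wild-type CP (-0.52 to 0.51). A second probe dropped in 1 array, where P0 wild-type sample 1 read 5.72 while the other 11 arrays read 9.60 to 10.38. On that probe the P0 difference was 1.22 ± 0.87 with this sample and -0.24 ± 0.28 without it, and neither passed (adjusted p over 20021 probes = 0.438 and 0.691). Another Cep63 probe, detected on 8 arrays, read 5.39 to 6.57 with no called difference, and the last was detected on none.

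Deup1, the organiser of deuterosomes, fell with age in both tissues. It read 7.72, 7.59 and 7.62 in P0 wild-type CP and 5.70, 5.29 and 5.01 in P21 wild-type CP. In tumors it read 6.89, 7.42 and 6.67 at P0, and 5.62, 5.51 and 5.85 at P21. Wild-type CP at P0 was highest, P0 tumors came next without overlap, and the P21 groups overlapped each other below both. The fall with age was -2.31 ± 0.23 in wild-type CP (4.97-fold, adjusted p = 4.44e-05) and -1.34 ± 0.23 in tumors (2.52-fold, adjusted p = 0.00155). At P21 the probe was detected on 1 of 3 wild-type and 2 of 3 tumor arrays, so these folds rest on values near background. Without background correction they were -1.11 and -0.60 on the log2 scale, and both still passed.

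At P0 Deup1 was lower in every tumor than in every wild-type sample, but the difference of -0.65 ± 0.23 did not pass (adjusted p = 0.0993). It passed without P0 tumor sample 2, the tumor with the highest value (-0.86, adjusted p = 0.0248). Without background correction it was -0.38 (adjusted p = 0.0926). At P21 the sign was the opposite, at 0.33 ± 0.23, and the groups overlapped (adjusted p = 0.401). The tumor effect at P21 minus that at P0 was 0.98 ± 0.33 for Deup1 and did not pass (adjusted p = 0.135), except without P0 tumor sample 2 (1.19, adjusted p = 0.0390).

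**Figure D1:**
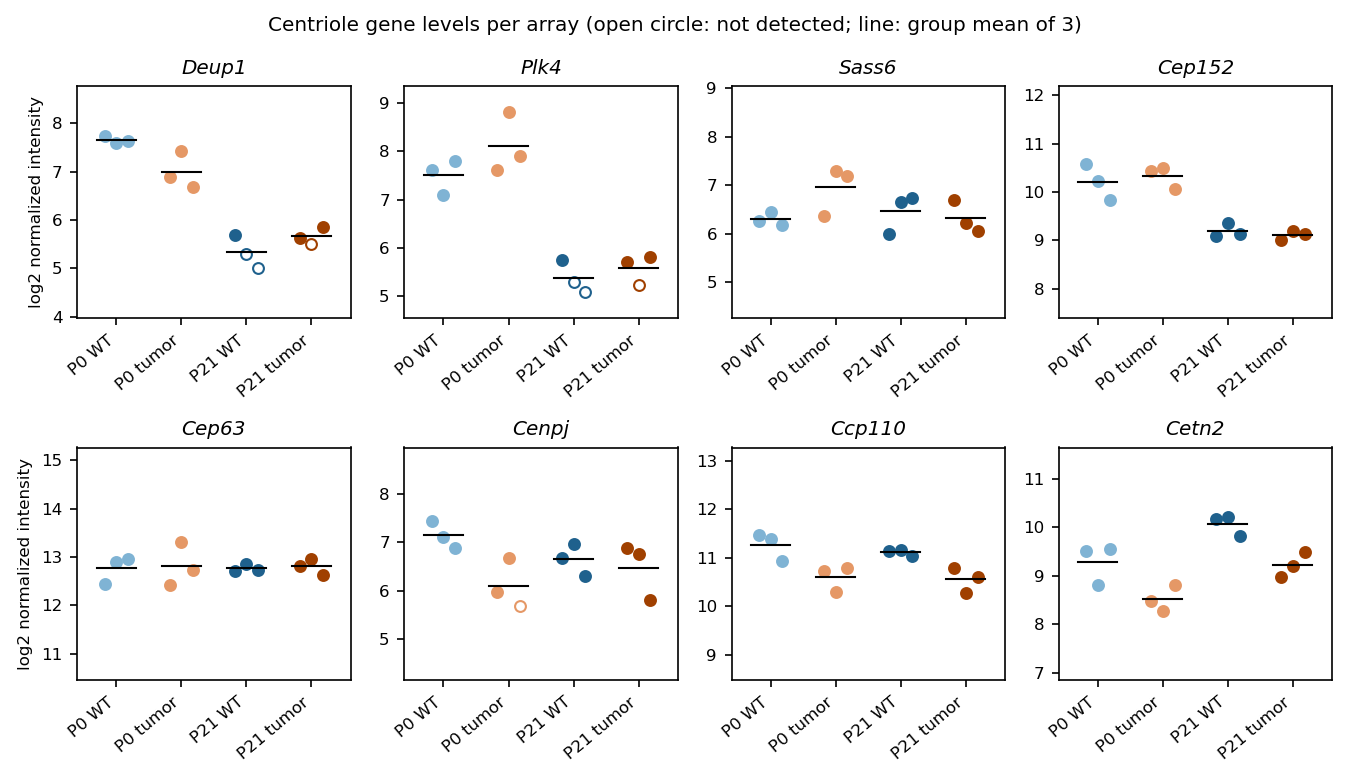
Log2 normalized intensity of the brightest probe of 8 centriole genes, 1 circle per array (open where the probe was not detected) with the mean of the 3 arrays of each group as a line; every panel spans the same number of log2 units. Deup1, Plk4 and Cep152 lie lower at P21 than at P0 in both tissues, Cep63 is level, and Cetn2 is lower in tumors at P21, where wild-type CP reads 9.82 to 10.22 and tumors 8.98 to 9.49.

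Cenpj (also called CPAP), which sets the length of the growing centriole wall, read 5.96, 6.66 and 5.68 in P0 tumors and 7.43, 7.11 and 6.88 in P0 wild-type CP. All 3 tumors lay below all 3 wild-type samples, and tumor sample 3 was not detected. The difference of -1.04 ± 0.33 was the lowest of the 8 genes and did not pass (adjusted p = 0.0630, 95% interval -1.75 to -0.32). With the replicate number as a block, a pairing inferred from the arrays and stated by no label, it passed (-1.04, adjusted p = 0.0296). It also passed without P0 tumor sample 2 (-1.32, adjusted p = 0.0239). Without background correction the Cenpj difference shrank to -0.49 (adjusted p = 0.0813). At P21 the tissues overlapped, with 6.87, 6.75 and 5.80 in tumors and 6.68, 6.96 and 6.31 in wild-type CP (-0.18 ± 0.33, adjusted p = 0.774).

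Ccp110 caps the distal end of a centriole and must leave before a cilium can grow. It read 10.72, 10.29 and 10.79 in P0 tumors and 11.48, 11.38 and 10.92 in P0 wild-type CP. At P21 it read 10.78, 10.28 and 10.61 in tumors and 11.15, 11.16 and 11.03 in wild-type CP. Tumors lay below wild-type CP without overlap at both ages, while neither difference passed. These were -0.66 ± 0.22 at P0 (adjusted p = 0.0737) and -0.56 ± 0.22 at P21 (adjusted p = 0.104). Its second detected probe gave -0.83 ± 0.22 at P0, which passed when every probe was tested (adjusted p over 20021 probes = 0.0358), and -0.52 ± 0.22 at P21 (0.153). The remaining probe was detected on no array. That second probe was the only one of 11 probes of the 8 genes called at P0. Of all probes, 9.15% were called in either direction and 5.01% lower. With the replicate number as a block, 2 probes were called, this one and that of Cenpj. Its call ended when the fit held the 6 P0 arrays alone (adjusted p = 0.171), and without P0 tumor sample 2 (0.0771) or 3 (0.0949) or P0 wild-type sample 1 (0.0972) or 3 (0.0870).

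For the brightest Ccp110 probe the P0 call depended on the setting. It passed with no background correction (-0.62, adjusted p = 0.0463), with the authors' deposited normalized values (-0.61, 0.0451), with the mean of its probes (-0.74, 0.0326) and without P0 wild-type sample 3 (-0.83, 0.0487). With only the 6 P21 arrays fitted, the P21 difference passed (-0.56, 0.0485). The change of Ccp110 with age was -0.15 ± 0.22 in wild-type CP and -0.05 ± 0.22 in tumors (95% intervals -0.62 to 0.32 and -0.52 to 0.43), and neither passed.

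Cetn2 encodes a centrin, a small calcium-binding protein inside the centriole barrel that accumulates in the basal bodies of ciliated cells. It read 8.98, 9.21 and 9.49 in P21 tumors, and 10.18, 10.22 and 9.82 in P21 wild-type CP. Every tumor lay below every wild-type sample, and the difference of -0.85 ± 0.25 passed (1.80-fold lower, adjusted p = 0.0327). At P0 it read 8.47, 8.28 and 8.81 in tumors and 9.52, 8.81 and 9.55 in wild-type CP. There P0 wild-type sample 2 came down to the highest tumor, and the difference of -0.77 ± 0.25 did not pass (adjusted p = 0.0675). Without that sample it was -1.01 and passed (adjusted p = 0.0199). The tumor effect at P21 minus that at P0 was -0.08 ± 0.35 (95% interval -0.84 to 0.69).

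The P21 call of Cetn2 ended without P21 tumor sample 1 (-0.72, adjusted p = 0.106) or 2 (-0.84, 0.0949), without P21 wild-type sample 1 (-0.79, 0.110) or 2 (-0.77, 0.123), and with median scaling (-0.67, 0.103). Cetn2 was the one member higher at P21 than at P0 in wild-type CP, by 0.78 ± 0.25 (adjusted p = 0.0428). That call for Cetn2 ended with only the 6 arrays fitted (adjusted p = 0.0655), with median scaling (0.0510) and without P0 wild-type sample 2 or any one P21 wild-type sample (0.135, 0.130, 0.138 and 0.0547). In tumors Cetn2 was 0.71 ± 0.25 higher at P21, without overlap, and did not pass (adjusted p = 0.0638).

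The order of the 4 groups therefore differed among the genes. Deup1, Cenpj and Ccp110 were highest in P0 wild-type CP, Plk4, Sass6 and Cep152 in P0 tumors, and Cetn2 in P21 wild-type CP. Cep63 had nearly level means in all groups. For Plk4 and Cep152 the 2 highest groups overlapped, as did the 2 lowest, with a gap between the ages. For Sass6, Cep63 and Cenpj every group overlapped its neighbour in the order. For Ccp110 the gap lay between both wild-type groups and both tumor groups.

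In the comparison of P0 tumors with P0 wild-type CP, 0 of the 8 genes passed, against 11.3% of all genes, and 5 of 8 had an unadjusted p under 0.05 against 25.2% of all genes. With the replicate number as a block 1 passed, namely Cenpj, lower in tumors. The groups did not overlap for 3 of 8 (Deup1, Cenpj and Ccp110), against 24.8% of all genes. At P21, Cetn2 alone of the 8 passed, lower in tumors, against 17.9% of all genes called in either direction and 7.44% lower. Of the 8 genes 2 did not overlap (Ccp110 and Cetn2), against 45.0% of all genes. No gene of the 8 passed for the difference of the tumor effects between the ages, against 4.43% of all genes, and 1 (Deup1) had an unadjusted p under 0.05 against 17.0% of all genes. The median difference of the 8 genes was -0.30 at P0 and -0.12 at P21, against -0.06 and -0.05 over all genes.

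**Figure D2:**
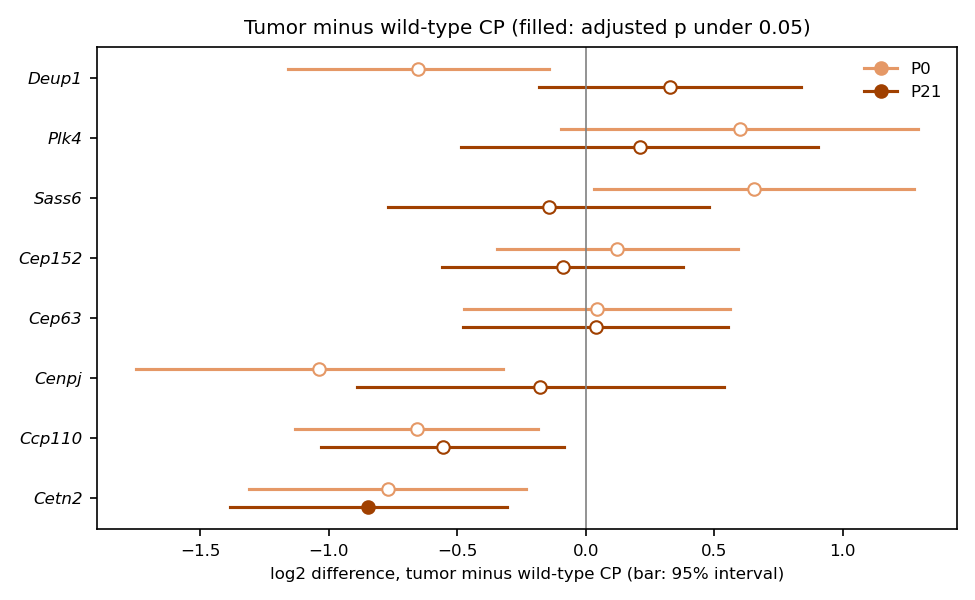
Log2 difference of tumor minus wild-type CP for 8 centriole genes at P0 and P21, with 95% intervals from the limma fit over 12 arrays and filled circles where the adjusted p was under 0.05. Only Cetn2 at P21 (-0.85) is filled; at P0 the intervals of Deup1, Cenpj, Ccp110 and Cetn2 lie below 0 and that of Sass6 just above.

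The comparison of ages gave more calls. In wild-type CP, 3 of 8 genes fell from P0 to P21 (Deup1, Plk4 and Cep152), against 13.0% of all genes, and 1 rose (Cetn2), against 7.38%. In tumors the same 3 genes fell, against 10.3% of all genes, and none of the 8 rose, against 9.94%. The ages did not overlap for 4 of 8 genes in either tissue (these 3 and Cetn2), against 42.2% of all genes in wild-type CP and 36.7% in tumors. Their median change was -0.32 in wild-type CP and -0.34 in tumors, against -0.05 and -0.03 over all genes. The falls of Deup1, Plk4 and Cep152 passed under each alternative in which the gene was tested. Deup1 and Plk4 were not tested where detection on all 12 arrays was required.

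**Figure D3:**
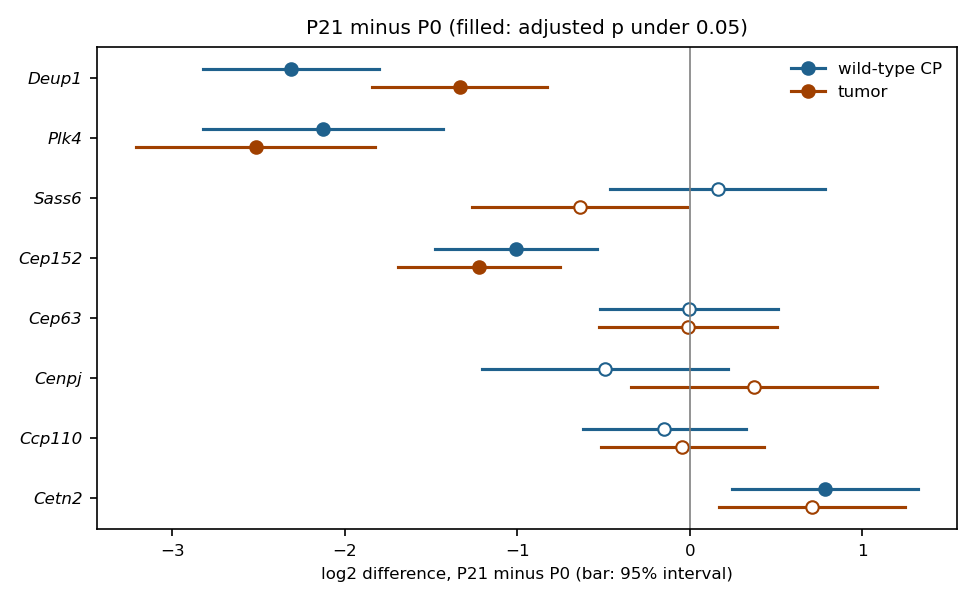
Log2 difference of P21 minus P0 for 8 centriole genes in wild-type CP and in tumors, with 95% intervals and filled circles where the adjusted p was under 0.05. Deup1, Plk4 and Cep152 lie below 0 in both tissues, and the Deup1 fall is -2.31 in wild-type CP and -1.34 in tumors.

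Genes of dividing cells moved in the same direction with age. Of 17 tested cell division genes, 13 fell with age in wild-type CP and 16 in tumors, against 13.0% and 10.3% of all genes, with none rising. Their summed intensity went from between 8161 and 10332 to between 3333 and 3663 in wild-type CP, and from between 33298 and 35746 to between 3794 and 4936 in tumors. Of 14 tested genes of the multiciliated cell program, 3 fell and 2 rose with age in wild-type CP, against 13.0% and 7.38% of all genes. In tumors 5 fell and 1 rose, against 10.3% and 9.94%. Among them the means of Gmnc and Cetn4 went up with age in wild-type CP, from 6.91 to 8.85 and from 11.19 to 12.37. In tumors the means of Gmnc and Cetn4 went from 6.47 to 6.12 and from 9.99 to 11.42. Ccno changed by -2.75 ± 0.21 in wild-type CP and -2.39 ± 0.21 in tumors. Mcidas changed by -2.37 ± 0.24 in wild-type CP and -1.35 ± 0.24 in tumors. It was not above background on any P21 array, so these values run down to background and do not give the full size of either fall. Markers of other cells moved too, beside the same shares of all genes (13.0% lower and 7.38% higher in wild-type CP, 10.3% and 9.94% in tumors). Of 5 endothelial markers 5 fell with age in tumors and 2 in wild-type CP, of 7 macrophage markers 1 and 4 fell, and of 5 astrocyte markers 3 rose in tumors, while in wild-type CP 1 rose and 1 fell. The part of these genes and cell types in the falls of Deup1, Plk4 and Cep152 was not tested.

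At P0 the calls of the cell division genes and of the centriole genes differed. All 17 cell division genes rose in P0 tumors (median 1.86 log2 units), against 5.00% of all genes higher, among them the helicase subunit Mcm5 (3.30), the topoisomerase Top2a (3.07), the mitotic kinase Aurkb (2.70) and the cyclin Ccne2 (2.63). Plk4, Sass6 and Cep152, which are known to be made in cycling cells, differed by 0.60, 0.65 and 0.12 and did not pass. At P21, 2 of 17 cell division genes rose, Cdc20 (1.15 ± 0.27, adjusted p = 0.00998) and Mcm5 (1.11 ± 0.23, 0.00463), against 10.5% of all genes higher. There 1 fell, against 7.44% of all genes lower, namely E2f1 (-1.76 ± 0.21, adjusted p = 9.30e-05), a transcription factor of the cell cycle.

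Of 22 tested genes of centriole assembly and length, 1 rose and 1 fell at P0 (median 0.02), against 5.00% of all genes higher and 6.28% lower. The one that rose was Tedc1, a partner of delta- and epsilon-tubulin in the centriole wall. On no P0 wild-type array was it above background, and tumors were higher by at least 1.74-fold (adjusted p = 6.95e-05). Mdm1, a microtubule-binding protein of the centriole lumen, fell at P0 (-0.77 ± 0.21, adjusted p = 0.0304) and at P21 (-1.06 ± 0.21, 0.00306). It was the only gene of that list called at P21, against 17.9% of all genes called in either direction.

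Of 23 tested genes of the centrosome matrix and spindle pole, 4 rose and 1 fell at P0 (median 0.25), against 5.00% of all genes higher and 6.28% lower. The mitotic kinases Plk1 (2.31 ± 0.23, adjusted p = 6.32e-05) and Aurka (1.84 ± 0.21, 0.000182) rose, as did the augmin subunit Haus8 (0.84 ± 0.18, 0.0104). Cep55, which acts in the last step of cell division, rose by at least 1.45-fold from a wild-type signal not above background (adjusted p = 0.00625). Cep70 fell (-1.32 ± 0.30, 0.0132). At P21, 2 rose and none fell (median 0.07), against 10.5% of all genes higher, namely Nin, a protein of subdistal appendages (1.03 ± 0.22, 0.00510), and Haus8 (0.68 ± 0.18, 0.0192).

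Of 13 tested genes of distal appendages and centriolar satellites, 2 fell and none rose at P0 (median -0.33), against 6.28% of all genes lower. At P21, 1 fell and none rose (median -0.27), against 7.44% lower. Pcm1, the scaffold of the satellites, fell at P0 (-1.39 ± 0.29, adjusted p = 0.00961), as did Cep350 (-0.85 ± 0.25, 0.0476). Cep83, needed to dock a centriole at the membrane, fell at P21 (-1.02 ± 0.24, 0.0115).

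Of 14 tested genes of the multiciliated cell program, 4 fell and none rose at P0 (median -0.32), against 6.28% of all genes lower. At P21, 5 fell and none rose (median -0.37), against 7.44% lower. Cetn4, a centrin of ciliated cells in mouse, fell at both ages, by -1.20 ± 0.24 at P0 (adjusted p = 0.00715) and by -0.95 ± 0.24 at P21 (0.0150). Gmnc, at the head of the program, fell at P21 (-2.73 ± 0.40, 0.000479), as did the cilium regulator Foxj1 (-1.02 ± 0.29, 0.0271) and Ccno, a driver of centriole amplification (-0.70 ± 0.21, 0.0342). Trp73, a transcription factor of the program, was lower at both ages by at least 1.86-fold (P0, adjusted p = 0.0161) and 2.07-fold (P21, 0.0119), with no tumor array above background. Ccno also fell at P0 (-1.06 ± 0.21, 0.00637). Mcidas, which acts below Gmnc, fell at P0 (-0.87 ± 0.24, 0.0367) and was above background on no array of either group at P21. These genes were listed with earlier results of these data known, so the counts are descriptions.

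**Figure D4:**
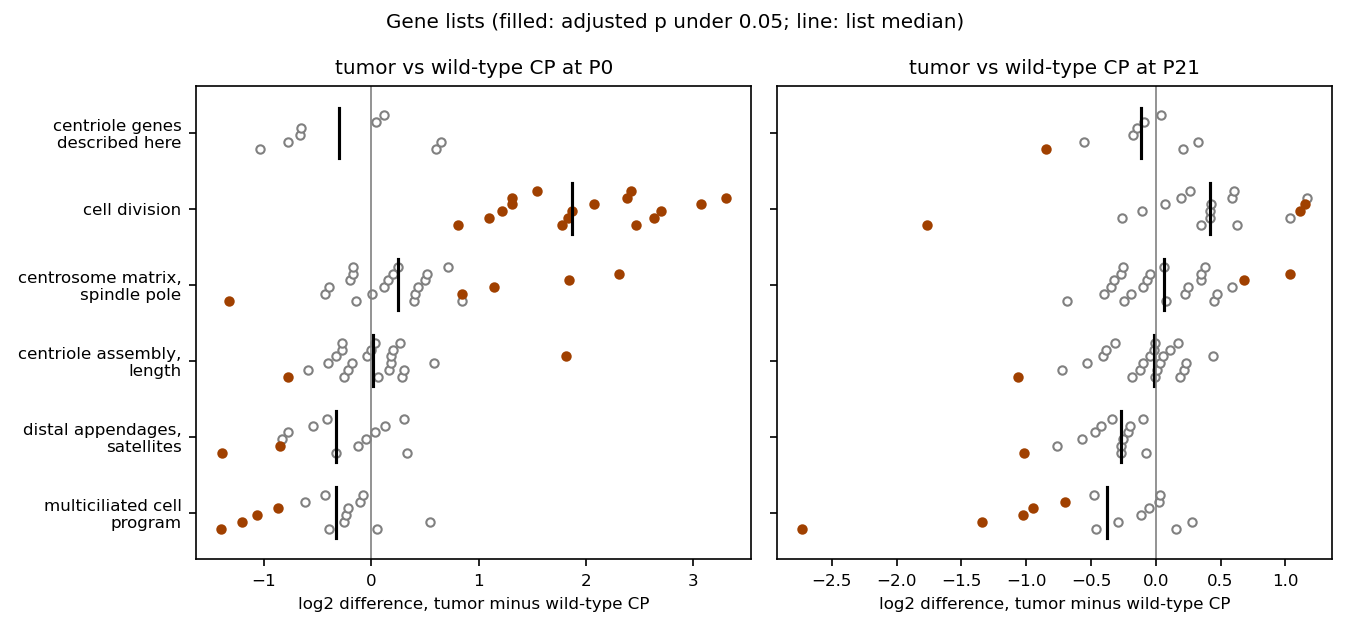
Log2 difference of tumor minus wild-type CP for each age, P0 and P21, 1 circle per tested gene in the 8 centriole genes and in 5 lists, filled where the adjusted p was under 0.05, with the list median as a line. At P0 the cell division list has the highest median of those drawn (1.86), and the 8 centriole genes lie on both sides of 0 (median -0.30).

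Markers of several cell types, CP epithelium among them, moved beside the lower Cetn2 of P21 tumors. Over all genes, 10.5% were called higher and 7.44% lower in P21 tumors, and the counts below stand beside these shares. CP epithelial cells are multiciliated too, so the multiciliated ependyma markers do not set ependyma apart from them. The summed intensity of 7 multiciliated ependyma markers was 12882 to 16149 in P21 tumors against 20261 to 24849 in P21 wild-type CP, and 1 of 7 fell. That of 7 CP epithelial markers was 174073 to 183236 against 231191 to 235991, and 3 of 7 fell. Of the astrocyte markers 3 of 5 rose and 1 fell (sums of 15630 to 37628 against 4918 to 5858), of the macrophage markers 5 of 7 rose (5319 to 8805 against 2831 to 2932), and of the pericyte markers 1 of 5 rose (13302 to 26349 against 2548 to 4701). That pericyte marker was Acta2, a smooth muscle actin also made by other contractile cells (3.02 ± 0.41). Pdgfrb (0.81 ± 0.31), Rgs5 (0.41 ± 0.60), Cspg4 (-0.40 ± 0.22) and Kcnj8 (-0.82 ± 0.32) did not pass. Of the fibroblast markers 2 of 5 rose, the collagen genes Col1a2 (2.97 ± 0.24) and Col1a1 (1.42 ± 0.33), and 1 fell, Pdgfra (-0.86 ± 0.18), with sums of 18504 to 23566 against 20615 to 23796. Pdgfra was also the 1 of 5 oligodendrocyte lineage markers that fell. These markers are named after their values were seen. No neuron, granule neuron or endothelial marker passed, and no tested marker of these lists was undetected on all 3 P21 tumor arrays. At P0 the ependyma sum was 11046 to 13402 in tumors against 16940 to 22654, also with 1 of 7 lower (6.28% of all genes). Their part in the Cetn2 values was not tested.

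The genes most like Plk4 over the 12 arrays were found by the root mean square difference of log2 values after each gene was centred. They were Dbf4, the activating subunit of the replication kinase Cdc7 (0.30 log2 units), Cd34 (0.39) and Sema6a (0.41), where Plk4 itself varied by 1.23 around its mean. Those most like Deup1 were Wnt5a, a Wnt ligand gene (0.25), Mcidas (0.26, detected on 6 arrays) and Atp10b (0.28, detected on 6), where Deup1 varied by 0.97.

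**Figure D5:**
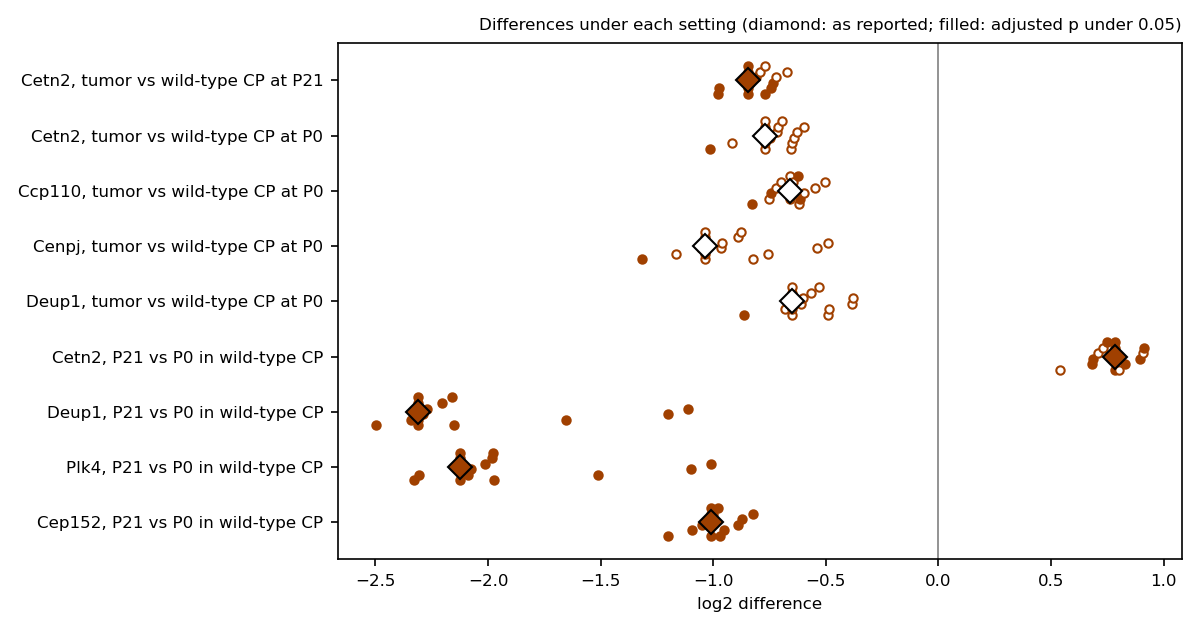
Log2 differences of selected centriole genes under each processing setting, with a diamond for the value as reported, circles for the alternatives, and filling where the adjusted p was under 0.05. The age falls of Deup1, Plk4 and Cep152 in wild-type CP are filled throughout but shrink for Deup1 and Plk4 where background is not subtracted, and the P0 tumor differences of Cetn2, Ccp110, Cenpj and Deup1 and the P21 difference of Cetn2 lie below 0 in each setting drawn while their calls vary.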

How the data were processed

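RNA of 12 pooled tissue samples was hybridized to Illumina mouse BeadChips. Per the file headers, the deposited raw table holds average bead signals per probe and array, which are intensity values not yet normalized, and the scanner's detection p-values. The authors also deposited normalized intensity values (linear scale), which served as an alternative. How they were normalized was not stated by the sources used here. The number of arrays limits the precision, and no source states that pools of one group came from separate litters, so the spread behind each p-value may be technical in part.

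Background was corrected with normexp in limma 3.58.1 (R 4.3.3), with background levels that limma infers from detection p-values, an offset of 16, quantile normalization and log2. Symbols came from GEO's platform annotation, updated through RefSeq. Probes detected at p under 0.05 on at least 3 arrays and with 1 symbol (20021) gave 12379 genes, each by its brightest probe. One mean per group was fitted over 12 arrays (lmFit and eBayes, 8 residual degrees of freedom). In each of 5 comparisons, p-values were adjusted over all genes by Benjamini-Hochberg, with a threshold of 0.05. A second fit tested every probe. An exact permutation test of 3 against 3 arrays cannot go below p = 0.1 and was not used. Where no array of a group was above background, the fold is a lower bound, taken per array against the lowest signal of any detected probe or the probe's own signal, whichever was higher. Named genes are the 10 members, up to 4 called genes per pathway list and direction, 3 genes most like Plk4 and Deup1, and Ttr, Foxj1, Mcidas, Ccno and Top2a, of which Ttr (-0.04 ± 0.15 at P0) and Top2a (3.07 ± 0.41) serve as references. The members, lists, motifs and rule were chosen with earlier results of these data known. The calculation was tested on simulated data.

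Replicate numbers in the labels run from 1 to 3 in every group. At P0, tumor and wild-type samples with equal numbers deviated together from their group means (r = 0.425, 0.432 and 0.104), by which the numbers were taken to pair the samples, the third only just. At P21 they did not (r = -0.082, -0.028 and -0.14). Between the ages, samples with equal numbers gave r = 0.018, -0.20 and 0.025 in wild-type CP and -0.25, -0.14 and 0.26 in tumors. Those values show no consistent pairing between the ages. Alternatives changed the background correction, its offset, the normalization, the source of values, the detection filter, the rule for probes, the samples fitted and the replicate block.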

Additional observations from a re-analysis of the deposited data

How the results depend on the processing

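Of 665 values of single genes under the alternatives, 599 kept their direction and side of the threshold, 12 lost and 13 gained a call, and 41 changed sign without being called in either setting. P0 calls over all genes numbered 1397, but 561 with only the 6 arrays fitted and 766 without P0 tumor sample 3. Without P0 tumor sample 2, where Deup1 and Cenpj passed, they rose to 1739, with lower calls going from 778 to 1062. At P21 they were 2221, and 1474 without P21 tumor sample 2. With only the 6 P21 arrays fitted, where Ccp110 passed, they rose to 3178, with lower calls going from 921 to 1573. With age in wild-type CP they were 2518, and 1654 to 1663 without any one P21 wild-type sample. For the difference of tumor effects they were 549, but 346 with detection on all 12 arrays and 299 to 340 without P0 tumor sample 3, P21 tumor sample 2 or a P21 wild-type sample. Without P0 tumor sample 2, where Deup1 passed, they rose to 738. Median scaling moved the median of all genes at P21 from -0.05 to 0.08 and the calls from 1300 higher and 921 lower to 1702 and 613. With age in tumors it moved calls from 1230 and 1271 to 1586 and 937, and for the difference of tumor effects from 388 and 161 to 573 and 143, with the all-gene median there at 0.12 against 0.02. Low signal limits Plk4, Deup1, Cenpj and Sass6, and Stil was below background.

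Members called lower at P0 numbered 0, but 1 with no background correction, the authors' values, the mean of probes or the replicate block, and 0 to 2 when one sample was left out. By probe they numbered 1, but 0 with only the 6 arrays, 2 with the replicate block and 0 to 2 when one sample was left out. Members lower at P21 numbered 1, but 0 with median scaling, 2 with only the 6 arrays and 0 to 1 when one sample was left out, and by probe 1, but 0 with cyclic loess or median scaling and 0 to 1 when one sample was left out. Members higher with age in wild-type CP numbered 1, but 0 with median scaling, only the 6 arrays or the replicate block, and 0 to 1 when one sample was left out. By probe they numbered 0, but 1 with the authors' values, cyclic loess, no background correction or an offset of 50, and 0 to 1 when one sample was left out. Members higher with age in tumors numbered 0, but 1 with cyclic loess or median scaling, and by probe 0, but 1 with median scaling. Members lower with age numbered 3 in each tissue, but 1 where detection on all 12 arrays was required, since Deup1 and Plk4 were then not tested, and in tumors 4 without P0 tumor sample 1 (Sass6 added). Members with a larger tumor effect at P21 numbered 0, and 0 to 1 when one sample was left out. The replicate block pairs by number, within each age for the tumor comparisons and within each genotype for the comparisons of ages. At P0 the pairing was inferred from these same arrays and is weak for the third pair, so the Cenpj call under the block rests on that inference. Between the ages no consistent pairing was seen, so the lost Cetn2 call with age in wild-type CP rests on no shown pairing. Beside that call and the one of Cenpj at P0, the block changed no call of a member. By probe it changed no count other than that at P0.

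Sign changes touched uncalled values near 0. With median scaling these were Ccp110 with age in tumors (0.087), Cenpj (0.078), Cep152 (0.12) and Sass6 (0.11) in tumors at P21, Cep152 (0.011), Cep63 (0.063) and Cetn2 (0.038) in the difference of tumor effects, and Cep63 in tumors at P0 (-0.060), with age in tumors (0.14) and with age in wild-type CP (0.073). With cyclic loess they were Cep152 at P21 (0.044) and Cep63 with age in tumors (0.024) and in wild-type CP (0.032). The authors' values turned Cep63 with age in tumors (0.0038) and in the difference of effects (0.014), and the mean of probes turned Cep63 with age in wild-type CP (0.47) and at P21 (-0.092). Leaving out one sample gave ranges that crossed 0 for Ccp110 with age in tumors (-0.20 to 0.095) and in the difference of effects (-0.054 to 0.27), Cenpj at P21 (-0.37 to 0.16) and Cep152 at P0 (-0.068 to 0.31). Such ranges also held for Cep63 at P0 (-0.20 to 0.24), at P21 (-0.039 to 0.12), with age in wild-type CP (-0.17 to 0.092) and in tumors (-0.21 to 0.23), and for the difference of effects of Cep63 (-0.20 to 0.24) and Cetn2 (-0.21 to 0.17). The cause of these changes was not tested.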
